A study of Mus musculus with 15 samples.

Results

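The comparison described here sets mouse MC3T3 cells on day 3 of an osteogenic treatment against the same cells in control medium on day 0. MC3T3 is a cell line from mouse calvaria (the skull vault) whose cells can be driven towards osteoblasts, and the labels name its clone 1b, so a single clone of a single line was measured. The treated cultures received beta-glycerol phosphate (GP, a phosphate source for mineral), ascorbic acid (AA, a cofactor of collagen hydroxylation) and bone morphogenetic protein 2 (BMP-2, a bone-inducing growth factor) for 3 days. The groups were chosen by their labels, 3 treated arrays and 3 day 0 arrays, which are 6 of the 15 arrays of the series. Each array carried a preparation number from 1 to 3, and the arrays were paired by that number. Every set of 3 values below is in the order of preparations 1, 2 and 3. Medium, days in culture and all 3 additions change together in this comparison, so their effects cannot be told apart. The 3 arrays of cells given GP alone for 3 days are therefore set beside it as a side comparison that shares the day 0 arrays. The labels leave unstated if the 3 preparations came from separate cultures, and every p-value then reflects only how these arrays spread, possibly for technical reasons.

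As background, BMP-2 binds serine/threonine kinase receptors at the cell surface, which phosphorylate Smad1, Smad5 and Smad8. These enter the nucleus with Smad4 and switch on early target genes such as the Id genes, the Dlx homeobox genes and Smad6, which feeds back to inhibit the pathway. In cells of the osteoblast lineage the later response includes alkaline phosphatase, the receptor for parathyroid hormone and proteins of the bone matrix.

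RNA was measured on single-colour oligonucleotide arrays with 12488 probe sets, and values are the deposited intensities per probe set. Leaving out control probe sets, 7502 of 12422 had a mean of at least 24.8 intensity units, the filter level, and were tested. The number of arrays limits the precision. The preparation 3 arrays had 12.1% to 14.3% of their values at or under 2.8, the floor used here, a larger share on each of them than on any array of preparations 1 and 2. The GP day 3 array of preparation 3 stood apart in its actin control probes, whose 3' signal was 2.11 times the 5' signal, against 1.00 to 1.34 times elsewhere. Col1a1, Col1a2, Sparc and Postn, matrix genes of osteoblastic cells, were at 8812 to 11861.5, 7855 to 11181, 2501 to 3771 and 2642 to 6653 intensity units over the 6 arrays. Of the defining genes of other cell types, Pparg, of fat cells, lay at or under the floor on 6 of the 6 arrays, and Ptprc, of blood cells, and Epcam, of epithelia, on 4 of 6 each. Others were above the filter level on all 6 arrays: Cdh1, the epithelial cadherin, at 71.0 to 192.5 intensity units, and the muscle factors Myod1 and Myog at 36.9 to 70.0 and 24.9 to 90.0. Runx2, Sp7, Bglap and Spp1, further osteoblast genes, were not analysed here.

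Between day 0 and day 3 of treatment, 891 of the 7502 tested probe sets changed (11.9%), 436 higher (5.81%) and 455 lower (6.07%), at an adjusted p of 0.05 in limma with the preparation number as a block. Named with 1 probe set each, 743 of 5680 tested genes changed (13.1%), 366 higher (6.44%) and 377 lower (6.64%). The direction was the same in all 3 preparations for 737 of the 743, and the 3 and 3 values did not overlap for 572, against 1465 of the 7502 probe sets tested (19.5%). The 743 genes were called on these same values, so both counts are descriptions only. The last share is over probe sets, called or not. Most changes were modest: 222 of the 743 were beyond 1 on the log2 scale, with extremes of 4.86 and -4.45. Whole cultures were measured, so fewer cells of a type and less RNA per cell cannot be told apart. In the side comparison of GP alone on day 3 against day 0, 1 probe set passed (0.0133%), that of Lox, and 743 had an unadjusted p under 0.05. Treated against GP cultures on day 3, 1053 probe sets differed (14%), 524 higher with treatment (6.98%) and 529 lower (7.05%). Without the block 209 probe sets passed for treated day 3 against day 0, 94 higher and 115 lower, and 0 for GP (314 at an unadjusted p under 0.05). The count was 585 without the day 0 array of preparation 1 and 481 without that of preparation 3.

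Among the largest increases were those of osteoblast genes that lay near background at day 0. Alpl, tissue-nonspecific alkaline phosphatase, which frees phosphate for mineral, was at 34.1, 23.3 and 10.2 intensity units at day 0 and at 363, 557 and 971 in the treated cultures, and at 33.4, 20.6 and 20.9 with GP alone. The treated values lay far above both other groups in every preparation, a log2 fold change of 4.86 ± 0.50 (SE; adjusted p = 6.98e-05). Pth1r, the receptor for parathyroid hormone, was at 3.9, 2.9 and 13.3 at day 0 and at 57.4, 131 and 419 after treatment (4.79 ± 0.83, adjusted p = 0.00254). Its GP values, 6.0, 8.6 and 4.7, stayed in the range of day 0. Omd, osteomodulin, a proteoglycan of mineralised matrix, went from 1.7, 13.8 and 33.7 to 87.2, 159 and 243.5 (3.78 ± 0.45, adjusted p = 0.000238), and all 3 treated values lay above all 3 day 0 values. Ibsp, bone sialoprotein, was at 6.1, 3.7 and 0.5 at day 0 and at 66.5, 24.4 and 169 after treatment (4.03 ± 0.93, adjusted p = 0.0132). Its treated values also lay above all day 0 values, but spread widely among themselves. The day 0 means of these 4 genes lay under the filter level, which leaves the size of each change uncertain. With all values under 50 raised to 50, the changes were 3.54 for Alpl and 1.59 for Omd, both past the threshold, and 1.55 for Pth1r and 0.72 for Ibsp, which were not (adjusted p = 0.0844 and 0.205).

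Other osteoblast genes moved less or not detectably. Tnfrsf11b, osteoprotegerin, the decoy receptor that restrains osteoclast formation, rose from 169, 154.5 and 259.8 to 236, 533 and 500.0 (1.07 ± 0.22, adjusted p = 0.00635), while GP cultures were at 73.4, 115 and 117. The treated value of preparation 1 lay below the day 0 value of preparation 3, so the groups overlapped, but each treated array was above its own day 0 array. Cdh11, the osteoblast cadherin, fell in every preparation, from 312, 324 and 382 to 179, 164 and 137 (-1.09 ± 0.16, adjusted p = 0.000957). Sparc (osteonectin), Col1a1 and Col1a2 (the chains of type I collagen) had log2 differences of 0.27 ± 0.14, 0.08 ± 0.13 and 0.15 ± 0.10, which did not pass (adjusted p = 0.245, 0.769 and 0.413). The value of Col1a1 turned to -0.0014 without the treated array of preparation 1, and a second Col1a2 probe set was at -0.22. The gene lists used from here on can share members, so their counts are not fully separate. Over the list of osteoblast genes, of which 13 of 24 were tested, 6 rose and 1 fell, with a median of 0.67, against 6.44% and 6.64% of all tested genes and a median of 0.0042. The median was 0.59, 0.79 and 0.44 within preparations 1, 2 and 3, and 0.19 for GP alone. Alpl, Pth1r, Omd and Ibsp passed the filter through the arrays of treated cultures, so their part in this count and median is a description only. With the filter at the 60th percentile 3 of 9 rose and the median was 0.27, and the rises numbered 4 without the block, 4 with a floor of 50, and 4 and 2 without preparations 1 and 2. Without the block the calls of Omd and Tnfrsf11b were lost (adjusted p = 0.0571 and 0.087), and without the treated array of preparation 3 that of Ibsp (2.80, adjusted p = 0.0913).

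**Figure D1:**
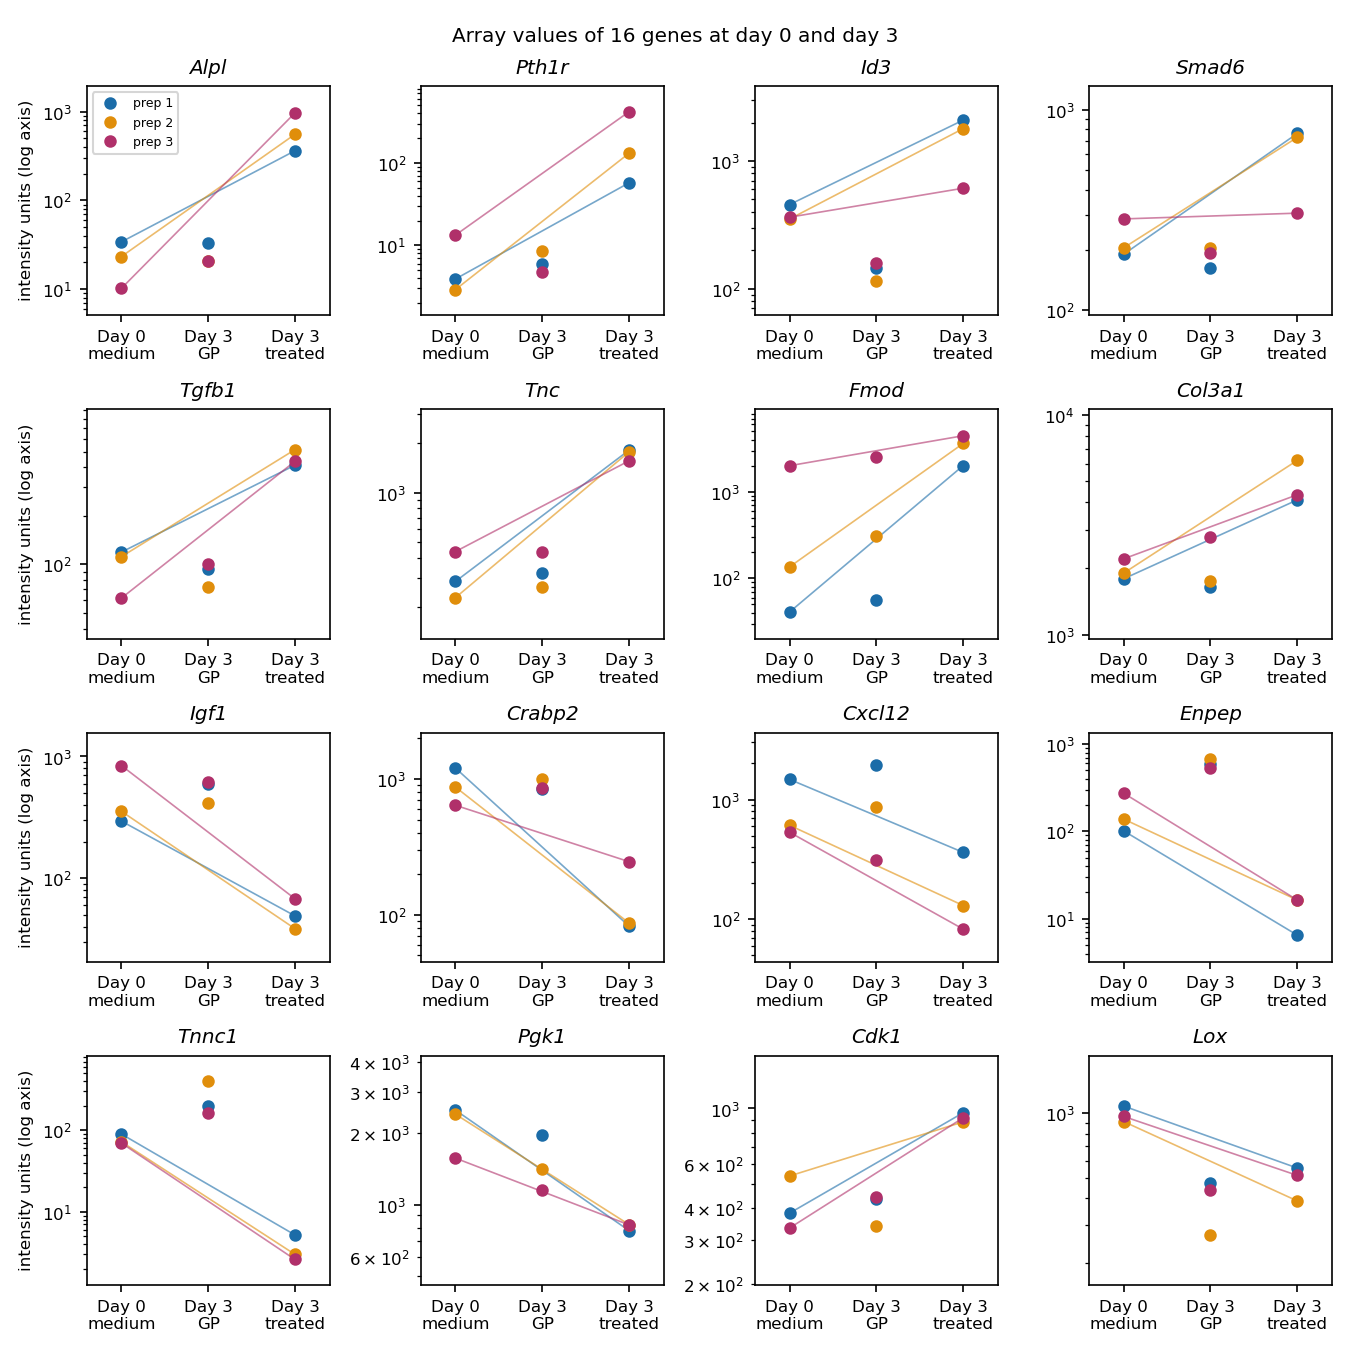
Intensity (log axis) of 16 genes on the day 0, GP day 3 and treated day 3 arrays, 1 point per array coloured by preparation, with a line joining day 0 to treated day 3 of the same preparation. Alpl rose from at most 34.1 to at least 363 intensity units, Id3 and Smad6 rose least in preparation 3, Enpep and Tnnc1 stood highest with GP alone, and Lox fell in both day 3 groups.

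Among the intracellular parts of the BMP pathway and its direct targets, 7 of 22 tested genes rose and 2 fell, with a median log2 change of 0.37. The rises were 31.8% of the tested members against 6.44% of all tested genes, and the falls 9.09% against 6.64%, which is near that background. Smad1, a carrier of the BMP signal, rose from 231, 193 and 366.5 to 324, 342 and 648 intensity units (0.71 ± 0.15, adjusted p = 0.00675). Smad6, its feedback inhibitor, went from 189.8, 204 and 285 to 763, 730.2 and 305 (1.31 ± 0.29, adjusted p = 0.0104). The treated arrays of preparations 1 and 2 were far above day 0 while that of preparation 3 was barely so, and the call was lost without the treated array of preparation 1 or 2 (adjusted p = 0.0527 and 0.0532) and with only the 6 arrays (0.064). Smad7, the other inhibitory Smad, had a log2 difference of 0.42 ± 0.21 that did not pass (adjusted p = 0.229). Tgif1, a corepressor of Smad activity, fell by 0.50 on the log2 scale.

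The 4 Id genes encode helix-loop-helix proteins that hold back differentiation factors, and they did not move together. Id3 was at 456, 351 and 363 at day 0, at 2093, 1795 and 612 after treatment and at 145, 114.5 and 159 with GP alone. The 3 groups did not overlap, with treated highest and GP lowest (1.77 ± 0.30 for treated against day 0, adjusted p = 0.00246). Id2 was at 58.6, 105 and 196.5 at day 0 and at 741, 665 and 129.5 after treatment, higher in preparations 1 and 2 and lower in preparation 3. Its log2 difference of 1.91 ± 0.61 did not pass (adjusted p = 0.0599). Without the treated array of preparation 3 it was 3.01 (adjusted p = 0.000176), and it also passed without the GP day 3 array of preparation 3 (adjusted p = 0.0484). Id1 split the same way by preparation, 104, 70.4 and 75.6 against 204.5, 129 and 31.9 (0.20 ± 0.42, adjusted p = 0.841), and its sign turned without the treated array of preparation 1 or 2. Id4 ran opposite: it fell from 1009.7, 815.5 and 801 to 228, 118 and 91.5 (-2.69 ± 0.21, adjusted p = 1.37e-05), below every day 0 value in each preparation.

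The Dlx genes encode homeobox factors of skeletal development. Dlx2 rose from 183, 135 and 177.5 to 437.5, 332 and 264 (1.04 ± 0.19, adjusted p = 0.00324) and Dlx5 from 211, 178 and 313 to 545, 491 and 371 (1.02 ± 0.20, adjusted p = 0.00509). Their treated values lay above all day 0 values, with the lowest in preparation 3 for both. Dlx1 rose by 0.87 ± 0.22 (adjusted p = 0.0212), a call lost without the block (adjusted p = 0.218) and without the day 0 array of preparation 2 or 3 or the treated array of preparation 1 or 2 (adjusted p = 0.0574 to 0.106). With only the 6 arrays the adjusted p of Dlx5 was 0.0528. Hey1, a repressor downstream of BMP and Notch signals, went from 11.9, 16.9 and 17.2 to 113, 177 and 81.3 (2.96 ± 0.57, adjusted p = 0.00468), and by 1.24 with values under 50 raised to 50. Its day 0 values lay under the filter level, which Hey1 passed through other arrays. Its part in the list's count and median is a description only. Msx1 and Msx2, related homeobox genes, had differences of 0.35 ± 0.21 and 0.63 ± 0.24 that did not pass (adjusted p = 0.35 and 0.117). The list's median was 0.50 and 0.75 within preparations 1 and 2 and 0.17 within preparation 3. Without preparation 1 or 2 as a whole, 1 and 0 of the 22 rose (10 at an unadjusted p under 0.05 over all arrays), and without preparation 3 the count was 9.

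Ligands, receptors and secreted antagonists of the BMP and TGF-beta families changed in 3 of 24 tested members, 1 higher (4.17%) and 2 lower (8.33%), shares near those of all tested genes (6.44% and 6.64%). Tgfb1, the ligand TGF-beta 1, was at 119, 112 and 61.8 at day 0 and at 412, 514 and 435 after treatment. The treated values lay well above day 0 in all 3 preparations (2.27 ± 0.32, adjusted p = 0.000769), while GP cultures were at 93.2, 72.9 and 100.1. Tgfbr3 (betaglycan, a TGF-beta coreceptor) and Fstl1 (a follistatin-like secreted protein) fell by 1.28 and 0.90 on the log2 scale (adjusted p = 0.0229 and 0.0211). Their calls were lost without the block (adjusted p = 0.236 and 0.114), without the day 0 array of preparation 1 or 3, and without the treated array of preparation 1, and that of Fstl1 also without the day 0 array of preparation 2 (adjusted p from 0.0507 to 0.126). The ligand Bmp4 and the antagonist Nog had differences of 0.14 ± 0.22 and -0.26 ± 0.31 that did not pass (adjusted p = 0.78 and 0.692) and whose signs turned when the treated array of preparation 2 (Bmp4) or 3 (Nog) was left out. Ccn2, connective tissue growth factor, a target of TGF-beta, was at 74.7, 183 and 235, at 219, 331 and 190.1 and, with GP alone, at 12.7, 28.3 and 61.6. Treated and day 0 values overlapped (0.70 ± 0.61, adjusted p = 0.55), and the difference between treated and GP cultures was 3.09 ± 0.61 (adjusted p = 0.00501).

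Of the growth factors and their receptors, 8 of 25 tested genes fell (32%) and 2 rose (8%), with a median of -0.40. Of all tested genes 6.64% fell and 6.44% rose, so the share of rises is near that background. Igf1, insulin-like growth factor 1, was at 295, 355 and 842 at day 0 and at 49.3, 38.7 and 68.1 after treatment, with GP cultures at 592, 413 and 622.5. Every treated value was below every value of the other groups (-3.14 ± 0.31, adjusted p = 5.07e-05), but a second Igf1 probe set changed by -0.40 and did not pass (adjusted p = 0.34). Igf1r, its receptor, fell from 601, 531.5 and 512 to 298, 245 and 244 (-1.07 ± 0.13, adjusted p = 0.000326). Vegfd, a ligand of endothelial receptors, fell from 249.9, 221.5 and 108 to 56.9, 42.4 and 33.4 (-2.07 ± 0.18, adjusted p = 2.45e-05), and Fgf7, a fibroblast growth factor that acts on epithelia, from 1107, 724 and 502 to 369, 228 and 71.6 (-2.02 ± 0.41, adjusted p = 0.00666). Both fell in all 3 preparations without overlap of the groups. Kitl, stem cell factor, fell by 1.23 (adjusted p = 0.00157), which did not pass without the block (adjusted p = 0.0913). Egfr, the epidermal growth factor receptor, was at 93.2, 110.4 and 124 and then at 67.5, 12.2 and 13.8 (-2.27 ± 0.49, adjusted p = 0.0089), its treated value in preparation 1 standing well above the others. Its call was lost without the day 0 array of preparation 3 (adjusted p = 0.0535). With a floor of 50 its change was -0.97. Of 2 further Egfr probe sets, 1 fell by 1.79 (adjusted p = 0.0249) and 1 was at -1.18 and did not pass (adjusted p = 0.0831).

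The 2 genes of that list that rose were Pdgfa, a platelet-derived growth factor chain, from 537, 558 and 487.5 to 752, 1324 and 1868 (1.22 ± 0.23, adjusted p = 0.00353), and Fgfr2, a fibroblast growth factor receptor of skeletal growth. Fgfr2 was at 264, 338 and 1658 at day 0 and at 2139.7, 2049 and 1897 after treatment (1.94 ± 0.40, adjusted p = 0.00735). Its treated values were alike in the 3 preparations, whereas day 0 was already high in preparation 3, and the call was lost without the block (adjusted p = 0.206).

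In the Wnt pathway, which also steers osteoblast differentiation, 7 of 26 tested genes fell (26.9%, against 6.64% of all tested genes) and 2 rose (7.69%, near the 6.44% of all), with a median of -0.26. The falls numbered 2 without the block, 2 with only the 6 arrays and 2 without preparation 2. The ligand Wnt4 was at 7.2, 8.3 and 5.9 at day 0 and at 117, 210.3 and 50.8 after treatment (3.93 ± 0.61, adjusted p = 0.00131), with GP cultures at 7.4, 5.2 and 4.9. Treated values stood clear of both other groups, but with values under 50 raised to 50 the change was 1.11 and did not pass (adjusted p = 0.154). Wnt4 passed the filter through the arrays of treated cultures, so its part in the list's count and median is a description only. The ligand Wnt6 rose by 2.21 ± 0.57 (adjusted p = 0.0225), and with the floor of 50 neither ligand passed. The ligand Wnt5a fell from 91.5, 61.7 and 33.5 to 30.9, 26.0 and 13.6 (-1.37 ± 0.30, adjusted p = 0.00997), and GP cultures were as low, at 64.8, 23.8 and 12.7, in preparations 2 and 3. The receptors Fzd2 and Lrp6 and the secreted protein Dkk3 fell by 0.61, 0.83 and 0.95. Rspo2, an R-spondin that strengthens Wnt signals and was not on the list, fell from 304, 173 and 213 to 92.9, 36.9 and 27.1 (-2.31 ± 0.23, adjusted p = 5.07e-05), below every day 0 value. Ccn5, a matricellular protein induced by Wnt signals, fell from 414, 331 and 361 to 148, 77.5 and 24.0 (-2.50 ± 0.36, adjusted p = 0.000769), and the treated arrays lay below those of GP, at 231.5, 147 and 102, in each preparation. Without the day 0 array of preparation 3, 4 genes of the list fell in place of 7, and the adjusted p of Lrp6 without the block was 0.433.

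Genes of the extracellular matrix changed in both directions. Of the glycoproteins and proteoglycans, 4 of 25 tested rose and 3 fell, against 6.44% and 6.64% of all tested genes, with a median of -0.19. Fmod, fibromodulin, which binds collagen fibrils, was at 40.9, 136 and 2002 at day 0 and at 2008, 3619.9 and 4443 after treatment (3.83 ± 0.69, adjusted p = 0.00324). Preparation 3 started about as high as the treated array of preparation 1 ended, so the rise was small there and large in the others. Dcn (decorin) and Lum (lumican), proteoglycans of the same family, had the same split at day 0: Dcn went from 64.9, 160.3 and 5638 to 1359, 4020.3 and 5046 (2.96 ± 0.68, adjusted p = 0.0128) and Lum from 17.6, 31.9 and 628 to 74.4, 608 and 2289.6 (2.73 ± 0.42, adjusted p = 0.00127). Dcn did not rise in preparation 3, and Lum values overlapped between the groups although each treated array was above its own day 0 array. Tnc, tenascin-C, a glycoprotein of developing bone, rose more evenly, from 287.5, 229 and 437 to 1814, 1771.5 and 1562 (2.48 ± 0.30, adjusted p = 0.00026), with GP cultures at 323, 267 and 437. Npnt, nephronectin, an integrin ligand of bone and kidney that was not on the list, went from 107, 287.5 and 2295 to 2709, 4900.4 and 4231.5 (3.21 ± 0.59, adjusted p = 0.00339). Fbln2, fibulin 2, fell from 2658, 2207 and 2559 to 764.5, 615 and 727 (-1.82 ± 0.12, adjusted p = 5.87e-06), and its groups stood far apart. Without the block the calls of Fmod, Npnt and Lum were lost (adjusted p = 0.236, 0.248 and 0.571), as was that of Dcn, and 1 of the list's 4 rises was left, that of Tnc.

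Of the fibrillar collagens and the enzymes that mature them, 3 of 21 tested genes rose (14.3%) and 2 fell (9.52%), against 6.44% and 6.64% of all tested genes, with a median of 0.15. Col3a1, a chain of type III collagen, rose from 1795, 1905 and 2214 to 4109, 6222 and 4336 (1.29 ± 0.17, adjusted p = 0.000465), and 2 further probe sets of the gene rose by 1.96 and 0.95. Col6a1 and the collagen chaperone gene Serpinh1 rose by 0.36 and 0.34 (adjusted p = 0.0246 and 0.0489). The list's count of rises fell from 3 to 1 without the block, with only the 6 arrays, with median scaling, and without the day 0 array of preparation 1, 2 or 3 or the treated array of preparation 1 or 2. The 2 genes that fell encode enzymes. P4ha1, a subunit of the prolyl hydroxylase that needs ascorbate, fell from 650.5, 615 and 648 to 275, 187 and 311 (-1.34 ± 0.20, adjusted p = 0.000997), while GP cultures stayed at 643, 613.5 and 678. Lox, lysyl oxidase, which cross-links collagen, fell from 1075, 911 and 962 to 554, 389.5 and 512 (-1.03 ± 0.16, adjusted p = 0.00151). It was the 1 gene that also passed for GP against day 0, at 472, 271 and 436 with GP alone (-1.36 ± 0.16, adjusted p = 0.00956), and treated and GP cultures differed by 0.33 ± 0.16, which did not pass (adjusted p = 0.223).

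The basement membrane list, the sheet proteins that underlie epithelia and vessels, had 5 of 14 tested genes lower (35.7%) and 2 higher (14.3%). The shares of all tested genes were 6.64% and 6.44%, and the list's median was -0.39. Col4a1, a chain of type IV collagen, fell from 497, 558 and 683 to 152.5, 113 and 225 (-1.87 ± 0.18, adjusted p = 4.79e-05). Its partner chain Col4a2 fell from 501.5, 687 and 873 to 289, 348 and 267 (-1.16 ± 0.19, adjusted p = 0.00169). Nid2, nidogen 2, which links laminin to collagen, fell from 482, 290.0 and 533 to 106, 50.7 and 139 (-2.21 ± 0.20, adjusted p = 3.21e-05). All 3 fell in every preparation without overlap of the groups, and GP values of Col4a1, 572, 640.5 and 1107.5, were above day 0 in each preparation. Nid1 and the laminin gene Lamc1 fell by 1.39 and 0.50. The rises were Col15a1, from 42.7, 59.4 and 196 to 281, 407 and 414.5 (2.19 ± 0.30, adjusted p = 0.00057, or 0.122 without the block), and the laminin gene Lama4, by 0.47. Among the matrix proteases and their inhibitors 1 of 21 tested genes rose (4.76%) and 3 fell (14.3%), against 6.44% and 6.64% of all. Mmp16, a membrane-bound metalloproteinase, was at 247, 170.3 and 40.7 and then at 70.9, 11.1 and 26.0 (-2.13 ± 0.46, adjusted p = 0.00928), with -1.32 without the treated array of preparation 2. Its call was lost without the day 0 array of preparation 2, when 1 gene of the list fell in place of 3, and without the block (adjusted p = 0.269).

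Genes of cell division rose, in the largest share of any list. Of the mitosis and spindle list, 25 of 37 tested genes rose (67.6%, against 6.44% of all tested genes), with a median of 0.67 and within-preparation medians of 0.63, 0.54 and 0.95, and the GP median was -0.19. Promoters of 3 of them, the 250 bases before the first listed start in RefSeq (GRCm38.p6), are shown because a CCAAT box and a cell cycle homology region are elements described for mitotic genes. Capitals mark CCAAT or its complement ATTGG and TTTGAA or its complement TTCAAA. Cdk1 lies at chr10:69352913-69353162 on the minus strand, Cdc20 at chr4:118437344-118437593 on the minus strand and Plk1 at chr7:122159185-122159434 on the plus strand.
Cdk1: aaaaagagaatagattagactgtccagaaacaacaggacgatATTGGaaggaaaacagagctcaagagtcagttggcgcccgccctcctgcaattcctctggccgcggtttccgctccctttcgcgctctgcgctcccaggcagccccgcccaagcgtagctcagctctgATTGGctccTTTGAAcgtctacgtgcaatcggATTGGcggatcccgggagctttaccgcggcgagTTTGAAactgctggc
Cdc20: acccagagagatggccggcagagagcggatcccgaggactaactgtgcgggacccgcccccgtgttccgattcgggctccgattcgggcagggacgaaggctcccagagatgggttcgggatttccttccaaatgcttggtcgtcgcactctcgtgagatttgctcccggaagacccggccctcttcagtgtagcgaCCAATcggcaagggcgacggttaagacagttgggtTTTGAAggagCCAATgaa
Plk1: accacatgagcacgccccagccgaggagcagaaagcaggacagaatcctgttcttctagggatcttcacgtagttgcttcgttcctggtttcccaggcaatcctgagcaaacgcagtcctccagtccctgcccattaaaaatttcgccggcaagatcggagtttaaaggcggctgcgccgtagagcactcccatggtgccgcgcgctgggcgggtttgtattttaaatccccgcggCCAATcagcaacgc
Searched on both strands, CCAAT was in the windows of 18 of the 22 genes of the list that rose and had a promoter in the table, in 6 of the 9 other tested ones, and in 34.5% of all 27025 promoters. TTTGAA was in 8 of 22, in 5 of 9 and in 16.3% of all. Of the 3 windows shown, that of Plk1 holds CCAAT but no TTTGAA. A match is a description of the sequence and not of a bound site.

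Cdk1, the kinase that starts mitosis, rose from 383, 538 and 334 to 962, 884 and 918 (1.17 ± 0.18, adjusted p = 0.00147). Cdc20, an activator of the complex that ends it, rose from 349, 470.3 and 365 to 652, 758 and 757 (0.88 ± 0.14, adjusted p = 0.00178). Both were above every day 0 value on each treated array. Aurkb, the Aurora B kinase of the centromere, rose from 128, 145 and 162 to 241, 299 and 238 (0.84 ± 0.15, adjusted p = 0.00266), with GP cultures below day 0 at 91.9, 104 and 115. Birc5, survivin, its partner in the chromosomal passenger complex, rose from 138, 110.1 and 144 to 246, 242 and 352 (1.09 ± 0.21, adjusted p = 0.00454). Plk1, the polo-like kinase, rose by 0.67 ± 0.16 (adjusted p = 0.018). The 25 rises spanned 0.56 to 1.23 on the log2 scale. Of the 12 others in the list, 9 had an unadjusted p under 0.05 and a higher value. The count was 16 without the day 0 array of preparation 3, 25 without the GP day 3 array of preparation 3 and 8 without the block.

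DNA replication genes rose in 16 of 35 tested cases (45.7%, against 6.44% of all tested genes), with a median of 0.63. Mcm2, a subunit of the replicative helicase, rose from 163, 225 and 185 to 344, 364 and 423 (0.99 ± 0.17, adjusted p = 0.00263), and Mcm4 of the same helicase from 206, 269.5 and 182 to 461, 355 and 561 (1.06 ± 0.23, adjusted p = 0.00968). Uhrf1, which copies methylation after replication, rose from 251, 287 and 251 to 461, 487 and 622 (0.98 ± 0.18, adjusted p = 0.0035). Pcna, the sliding clamp, rose by 0.72 ± 0.13 (adjusted p = 0.00271, or 0.0586 without the block). The values of these 4 genes did not overlap between the groups. Within preparations 1, 2 and 3 the median was 0.69, 0.28 and 0.82. The list's count was 2, 9 and 3 without preparations 1, 2 and 3 as a whole, 6 with only the 6 arrays and 4 without the block. It was 8 and 6 without the day 0 array of preparation 1 or 3, and 10 and 9 without the treated array of preparation 2 or 3. Of the genes of cell cycle arrest, p53 response and quiescence, 4 of 23 rose (17.4%) and 2 fell (8.70%). The shares of all tested genes were 6.44% and 6.64%, so the falls are near that background. Gadd45g, a growth arrest and DNA damage inducible gene, rose from 114, 149 and 191 to 315, 446 and 401 (1.37 ± 0.29, adjusted p = 0.00757, or 0.111 without the block), and Cdkn2d, an inhibitor of the kinases Cdk4 and Cdk6, from 165, 159.9 and 148 to 271, 314 and 252 (0.82 ± 0.16, adjusted p = 0.00434). Gas1, growth arrest specific 1, fell by 0.76. Without the day 0 array of preparation 2 or 3, or the treated array of preparation 2, the 4 rises became 2.

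Genes of ribosome assembly and polyamine synthesis, which support growth, rose in 14 of 32 tested cases (43.8%, against 6.44% of all), with a median of 0.52. Srm, spermidine synthase, rose from 164, 276 and 165 to 429, 468 and 435 (1.18 ± 0.18, adjusted p = 0.00101), and Nhp2, a part of the particles that modify ribosomal RNA, from 429, 417 and 352 to 711.5, 922 and 977 (1.12 ± 0.15, adjusted p = 0.000467). Both were higher than any day 0 value on each treated array, and GP cultures stayed near day 0 (0.00043 ± 0.18 and 0.08 ± 0.15). Myc, a transcription factor of cell growth, rose from 115, 114 and 159 to 161, 183.5 and 317 (0.72 ± 0.15, adjusted p = 0.00827), or with an adjusted p of 0.225 without the block and 0.0652 with only the 6 arrays. The list's count was 7 and 6 without the day 0 array of preparation 1 or 3, 9 without the treated array of preparation 1 and 4 without the block. In the oxidative phosphorylation list 5 of 44 rose (11.4%, against 6.44% of all tested genes), with a median of 0.15. The count was 0 without the block, 0 with only the 6 arrays, 1 with median scaling and 0 without any 1 of the preparations. It was 1 and 0 without the day 0 array of preparation 1 or 3 and 1 and 2 without the treated array of preparation 1 or 3, where 12 had an unadjusted p under 0.05 over all arrays.

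**Figure D2:**
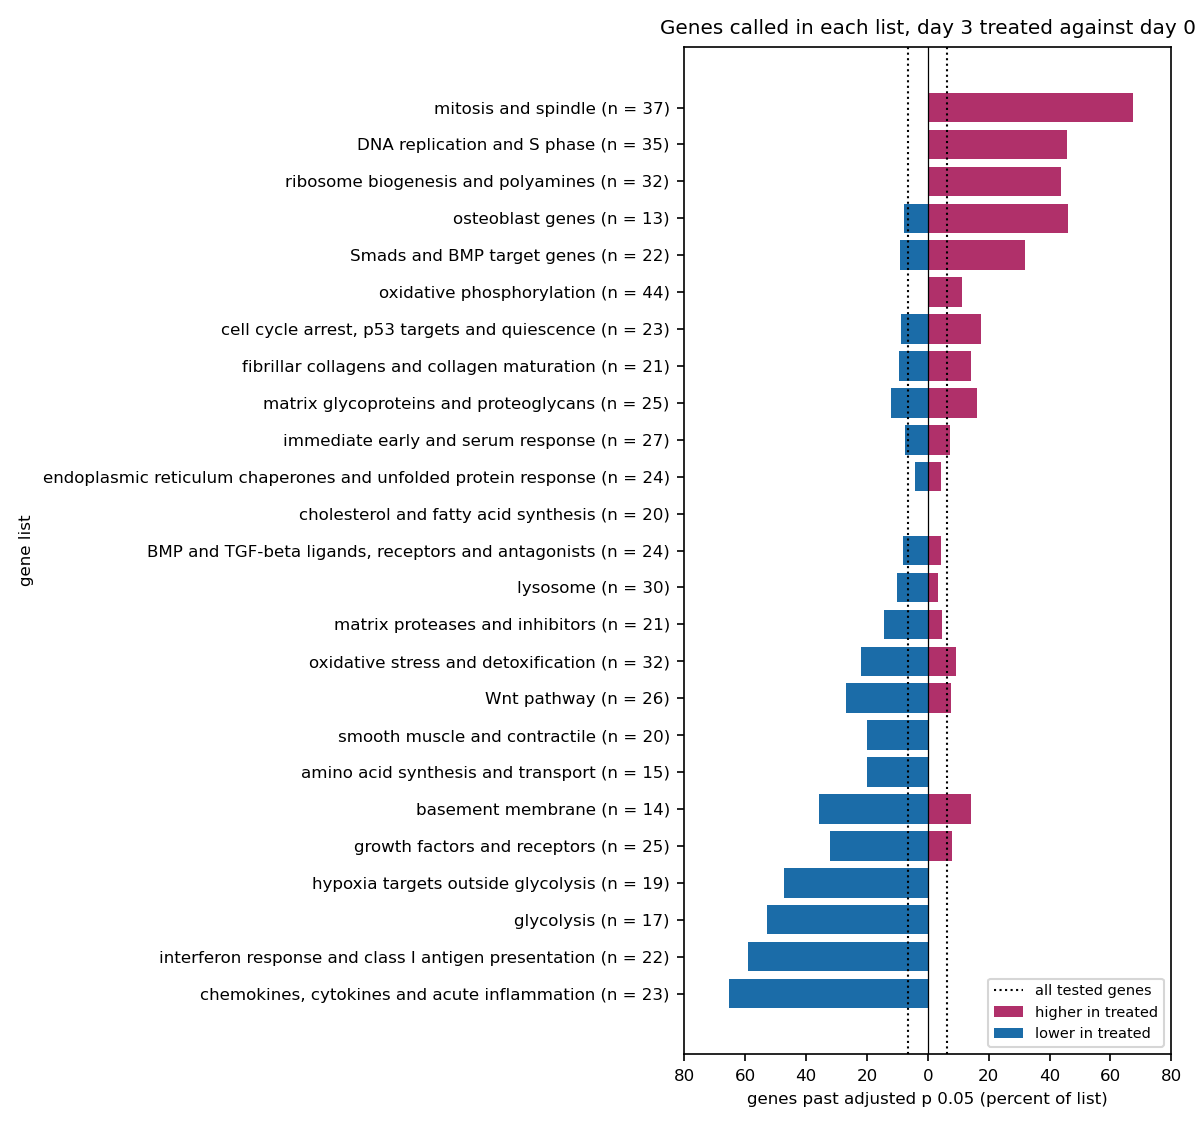
Share of the tested genes of each list that passed an adjusted p of 0.05, higher in treated day 3 (right) and lower (left), with n the number of genes tested and dotted lines at the shares over all tested genes (6.44% higher and 6.64% lower). Mitosis leads on the right at 67.6% and chemokines and inflammation on the left at 65.2%, and no gene of cholesterol and fatty acid synthesis passed (1 of 20 at an unadjusted p under 0.05).

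Glycolytic genes fell. Of 17 tested, 9 were lower (52.9%, against 6.64% of all tested genes), with a median of -0.62, and of 19 further targets of the hypoxia pathway 9 were lower, with a median of -0.64. The promoters of Pgk1 and Bnip3 are shown because ACGTG is the core to which hypoxia-inducible factors bind. Capitals mark ACGTG or its complement CACGT in the 250 bases before the RefSeq start (GRCm38.p6), at chrX:106186850-106187099 on the plus strand for Pgk1 and at chr7:138909507-138909756 on the minus strand for Bnip3.
Pgk1: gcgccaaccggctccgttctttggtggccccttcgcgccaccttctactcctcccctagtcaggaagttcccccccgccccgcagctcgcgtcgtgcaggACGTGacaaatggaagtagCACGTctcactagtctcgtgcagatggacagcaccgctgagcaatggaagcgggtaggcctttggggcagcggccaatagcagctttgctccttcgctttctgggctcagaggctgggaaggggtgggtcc
Bnip3: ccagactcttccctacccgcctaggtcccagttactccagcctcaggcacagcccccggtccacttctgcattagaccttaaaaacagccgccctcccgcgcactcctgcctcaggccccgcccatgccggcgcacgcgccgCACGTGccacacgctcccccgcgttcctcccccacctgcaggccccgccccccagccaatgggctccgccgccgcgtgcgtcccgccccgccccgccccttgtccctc
In Bnip3 the 2 matches overlap in the palindrome CACGTG. On both strands, ACGTG was in 7 of the 16 genes of both lists that fell and had a promoter in the table, in 8 of 17 other tested genes of these lists, and in 16.6% of all promoters.

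Pgk1, phosphoglycerate kinase, fell from 2504, 2406 and 1569.9 to 776, 823 and 821 (-1.39 ± 0.15, adjusted p = 9.85e-05), and the treated values were nearly alike in the 3 preparations. Aldoa, aldolase, fell from 4284, 3817 and 3251.5 to 1765, 1668 and 1407 (-1.23 ± 0.09, adjusted p = 6.35e-06), with GP cultures at 3774, 2891 and 2826. Pdk1, which holds pyruvate out of the mitochondrion's oxidation, fell from 409.8, 282 and 264 to 81.6, 55.6 and 88.8 (-2.08 ± 0.21, adjusted p = 5.07e-05). These 3 lay below every day 0 value on each treated array. Pfkl, a phosphofructokinase, and Slc2a1, the glucose transporter GLUT1, fell by 1.55 and 1.41 (adjusted p = 0.000467 and 0.00875). Among the other targets, Bnip3, a mitochondrial protein of mitophagy, fell from 299, 211.5 and 155 to 47.9, 33.2 and 50.4 (-2.31 ± 0.29, adjusted p = 0.000334). Egln1 and Kdm3a, oxygen-dependent dioxygenases, fell from 414, 412 and 368 to 166, 152.5 and 221 (-1.16 ± 0.19, adjusted p = 0.0017) and from 298, 236 and 241 to 133, 139 and 132 (-0.93 ± 0.12, adjusted p = 0.000467). Their groups did not overlap, and neither did those of Vegfa, the angiogenic growth factor, which fell from 57.6, 58.6 and 75.6 to 25.7, 14.8 and 21.0 (-1.67 ± 0.49, adjusted p = 0.0422). The treated mean of Vegfa lay under the filter level, which leaves the size of its change uncertain, and its call was not followed in the alternative runs. P4ha1, described with the collagens, is also a member of this second list. Within preparations 1, 2 and 3 the glycolysis median was -0.59, -0.72 and -0.25 and that of the other targets -1.01, -0.70 and -0.73. For GP alone the medians were -0.24 and -0.12. Without the block 5 genes of each list were lower.

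Genes of the interferon response and of antigen presentation fell in 13 of 22 tested cases (59.1%, against 6.64% of all), with a median of -0.64. The promoters of Irf1 and Gbp2 are shown because the gamma-activated site, TTCNNNGAA, and the interferon-stimulated response element, searched as GAAA, any 2 bases and GAAA again, are the known elements of such genes. Capitals mark a match on either strand in the 250 bases before the RefSeq start (GRCm38.p6), at chr11:53769764-53770013 for Irf1 and chr3:142620413-142620662 for Gbp2, both on the plus strand.
Irf1: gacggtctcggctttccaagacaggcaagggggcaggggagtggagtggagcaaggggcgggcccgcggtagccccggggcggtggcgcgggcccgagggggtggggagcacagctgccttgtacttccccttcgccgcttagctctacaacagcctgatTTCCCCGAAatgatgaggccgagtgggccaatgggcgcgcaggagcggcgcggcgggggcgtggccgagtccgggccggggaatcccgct
Gbp2: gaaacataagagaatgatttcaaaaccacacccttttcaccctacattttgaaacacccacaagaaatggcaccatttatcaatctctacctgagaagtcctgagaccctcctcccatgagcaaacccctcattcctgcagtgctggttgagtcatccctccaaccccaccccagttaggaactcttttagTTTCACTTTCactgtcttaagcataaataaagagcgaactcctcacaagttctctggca
The match in Irf1 is of the first kind and that in Gbp2 of the second, read on the opposite strand. TTCNNNGAA was in 3 of the 12 genes that fell and had a promoter in the table, in 1 of 7 other tested ones and in 7.2% of all promoters, and the response element in 1 of 12, 3 of 7 and 3.0%.

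Irf1, a transcription factor of the interferon response, fell from 326, 310.1 and 237 to 116, 130.0 and 112 (-1.27 ± 0.12, adjusted p = 4.79e-05), while GP cultures stayed at 270.0, 277 and 250.3. Gbp2, an interferon-inducible GTPase, fell from 163, 148 and 106.5 to 60.4, 40.8 and 5.8 (-2.50 ± 0.40, adjusted p = 0.00157, or 0.0792 without the block), lowest in preparation 3. H2-K1, a class I histocompatibility gene, fell from 215, 187.5 and 196 to 118, 143 and 119 (-0.66 ± 0.13, adjusted p = 0.006), and GP cultures at 321, 292 and 236 were above day 0. Neither Irf1 nor Gbp2 nor this H2-K1 probe set overlapped between the groups, but 2 further H2-K1 probe sets, at -1.21 and -0.08, did not pass, and neither did the first with only the 6 arrays (adjusted p = 0.0859). Psmb8, an immunoproteasome subunit, fell by 1.01 (adjusted p = 0.03). Within preparations the list's median was -0.52, -0.77 and -0.67, and it was 0.17 for GP alone. The count of 13 was 7 and 6 without the day 0 array of preparation 2 or 3, 8 and 8 without the treated array of preparation 2 or 3, and 2 without the block.

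Chemokines, cytokines and genes of acute inflammation had the largest share of decreases of the lists, 15 of 23 tested genes (65.2%). Of all tested genes 6.64% fell, and the list's median was -1.07. Cxcl12, the chemokine SDF-1 that holds blood-forming cells in marrow, fell from 1474, 609.7 and 534 to 362, 130.5 and 82.9 (-2.31 ± 0.23, adjusted p = 5.07e-05), with GP cultures at 1937, 869 and 313. Its scavenging receptor Ackr3 fell from 341, 193 and 249 to 43.5, 26.2 and 24.8 (-3.06 ± 0.21, adjusted p = 5.87e-06). Neither gene's groups overlapped, and Ackr3 was lower on each treated array than on any other of the 9 shown here. Osmr, the oncostatin M receptor, fell from 965, 674 and 253 to 302, 176 and 49.2 (-1.99 ± 0.14, adjusted p = 6.35e-06). It differed widely among preparations at day 0, fell in each, and overlapped between the groups. Vcam1, an adhesion molecule for leukocytes, fell from 1698, 1677 and 734 to 842, 486 and 322 (-1.33 ± 0.21, adjusted p = 0.00143), and Socs3, a feedback inhibitor of cytokine signals, from 1510.0, 851 and 111 to 153, 102 and 79.2 (-2.28 ± 0.52, adjusted p = 0.0129). Both overlapped between the groups, and the fall of Socs3 was far smaller in preparation 3 than in the others. The chemokine Ccl7 fell by 1.71 (adjusted p = 0.0106), whereas Ccl2 and Il6 had differences of -0.67 ± 0.33 and -1.07 ± 0.64 that did not pass (adjusted p = 0.236 and 0.34). The acute phase genes Saa3 and Lcn2 spanned 1681, 67.1 and 3.7 and 2315, 175 and 5.0 over the day 0 arrays, so that almost all of their signal lay in preparation 1. The median was -1.01, -1.22 and -0.58 within preparations 1, 2 and 3 and -0.22 for GP alone. The count of 15 was 9 and 8 without the day 0 array of preparation 1 or 2, 9 without the treated array of preparation 2 and 2 without the block, where Cxcl12 and Osmr had adjusted p-values of 0.144 and 0.269.

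**Figure D3:**
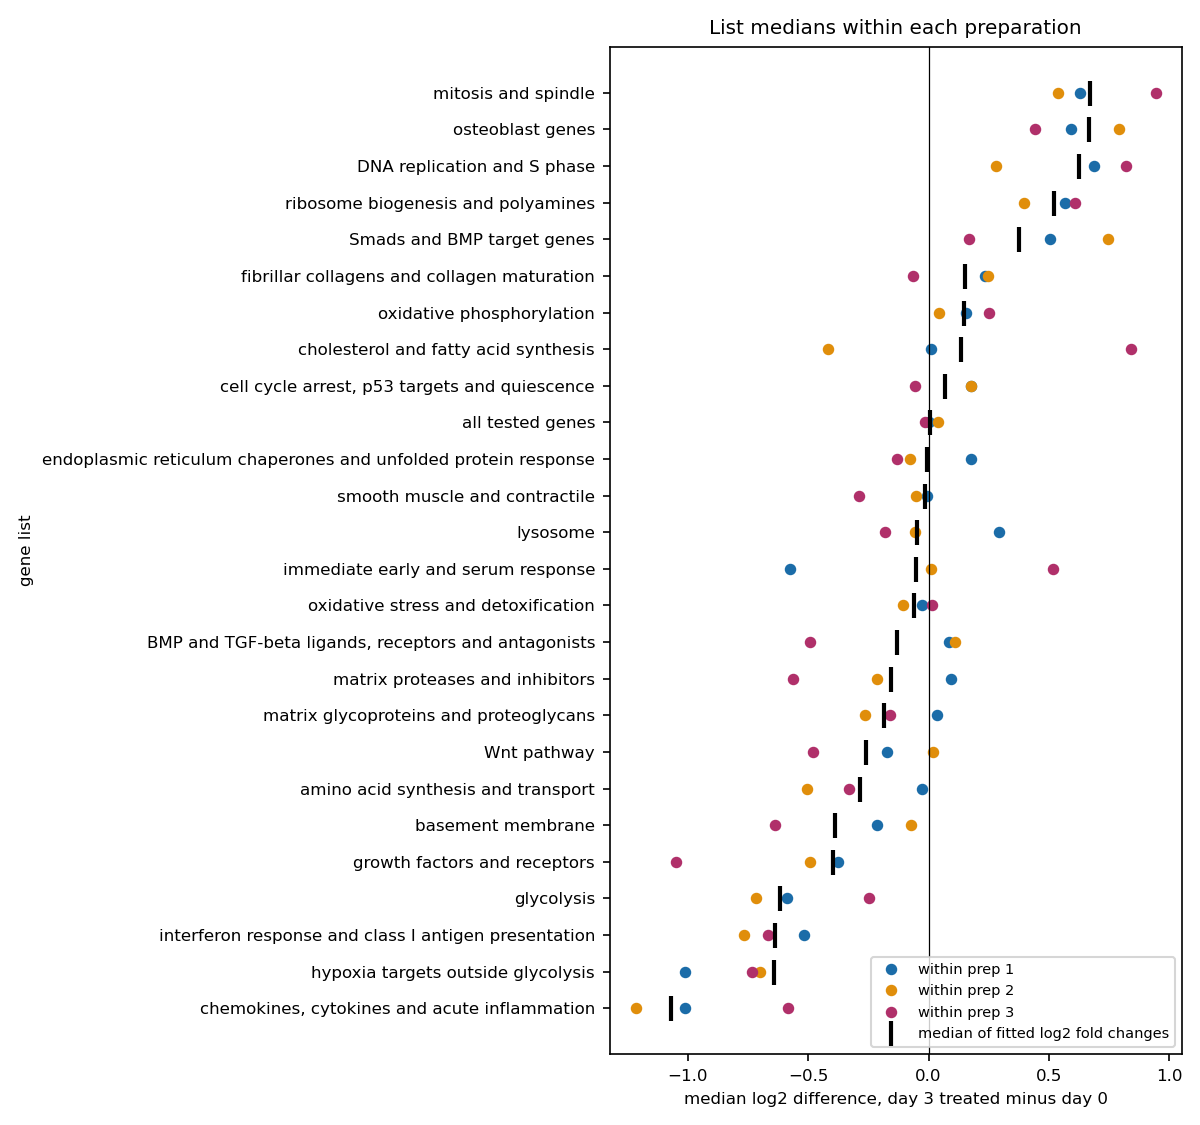
Median log2 difference of each gene list, treated day 3 minus day 0, within each preparation (points) and from the fit (bars), beside all tested genes. The preparations lie on the same side of 0 for mitosis, chemokines and both hypoxia lists, and on both sides for cholesterol and fatty acid synthesis (0.01, -0.42 and 0.84) and the immediate early genes (-0.58, 0.01 and 0.52).

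Some genes stood between the day 3 groups on opposite sides of day 0. Enpep, a cell surface aminopeptidase that cleaves angiotensin II, was at 101, 138 and 274 at day 0, at 6.5, 16.4 and 16.4 after treatment and at 584, 672 and 530.1 with GP alone. The treated values lay below and the GP values above all day 0 values (-3.70 ± 0.38, adjusted p = 7.16e-05). Tnnc1, a troponin of slow and cardiac muscle, was at 90.1, 72.4 and 69.9, at 5.2, 3.0 and 2.6 and, with GP alone, at 201, 400.2 and 164 (-4.45 ± 0.50, adjusted p = 0.000154). Tnnt1, another troponin subunit, went the same ways, 75.6, 61.9 and 65.1, 7.9, 14.7 and 7.2 and 180.3, 369 and 135 (-2.84 ± 0.34, adjusted p = 0.000231). The treated means of these 3 genes lay under the filter level. With values under 50 raised to 50 the change was -1.65 for Enpep, past the threshold, and -0.62 and -0.43 for the troponins, which were not (adjusted p = 0.164 and 0.386). A second probe set of Enpep and of Tnnt1 changed by -0.47 and -0.28 and did not pass (adjusted p = 0.415 and 0.682). Sema3e, a repulsive guidance factor, and Jup, plakoglobin of cell junctions, also ended under the filter level, at -2.82 ± 0.44 and -2.72 ± 0.33, and became -0.95 and -0.38, not past the threshold, with values under 50 raised to 50.

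Of the largest changes measured on both sides, several lay outside the lists. Ptgfr, the prostaglandin F receptor, rose from 329, 169 and 51.1 to 903, 879.6 and 663 (2.51 ± 0.30, adjusted p = 0.000238, or 0.0537 without the block), with GP cultures between them at 540.2, 471 and 200.1. Nrep, first described in regenerating neurons, rose from 132, 51.7 and 97.2 to 371.5, 359 and 916 (2.51 ± 0.26, adjusted p = 8.11e-05), and Pkdcc, a secreted kinase of skeletal development, from 91.8, 56.5 and 72.4 to 283, 204 and 311.5 (1.86 ± 0.35, adjusted p = 0.00403). All 3 were above every day 0 value on each treated array. Islr, Amacr (an enzyme of branched fatty acid oxidation) and Ramp1 (a subunit of the receptor for calcitonin gene-related peptide) rose by 1.98 ± 0.38, 2.35 ± 0.59 and 2.07 ± 0.54. Their calls were lost without the block (adjusted p = 0.0619, 0.114 and 0.0609), that of Amacr also without the day 0 array of preparation 1 (adjusted p = 0.0864) or the treated array of preparation 2 (adjusted p = 0.0929). Ramp1 had treated values of 102, 209 and 764, and it was 1.21 without the last of them (adjusted p = 0.0865) and lost its call without any 1 of the day 0 arrays or the treated array of preparation 2 (adjusted p = 0.0539 to 0.0821).

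Crabp2, which carries retinoic acid to its nuclear receptor, fell from 1205, 873 and 640.2 to 82.1, 86.5 and 246 (-2.86 ± 0.45, adjusted p = 0.00143), with GP cultures at 838, 993 and 856. The fall was smallest in preparation 3 but the groups stayed apart. Cyp1b1, a cytochrome P450 of the aryl hydrocarbon receptor response, fell from 844, 969 and 1042 to 297, 179.7 and 134 (-2.30 ± 0.20, adjusted p = 3.07e-05), and GP cultures, at 489, 499 and 504, lay between. Tinagl1, a matrix protein of basement membranes, fell from 156.5, 213 and 117 to 45.0, 22.9 and 34.5 (-2.26 ± 0.31, adjusted p = 0.000554). Cyp1b1 belongs to the oxidative stress and detoxification list, which had a median of -0.06. In that list 3 of 32 tested genes rose (9.38%) and 7 fell (21.9%), against 6.44% and 6.64% of all. Other decreases there were Aldh3a1, an aldehyde dehydrogenase, from 112, 149.5 and 137 to 46.7, 48.6 and 57.9 (-1.37 ± 0.24, adjusted p = 0.00287), Aox1, an aldehyde oxidase, by 1.13, and Nqo1, a quinone reductase, by 1.21. Mt2, metallothionein 2, was at 6067, 4535 and 1074 and then at 752, 733 and 628.5 (-2.14 ± 0.42, adjusted p = 0.00544, or 0.23 without the block), and its day 0 value in preparation 3 was far below the others. The 7 decreases became 4 without the day 0 array of preparation 3 or the treated array of preparation 2.

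**Figure D4:**
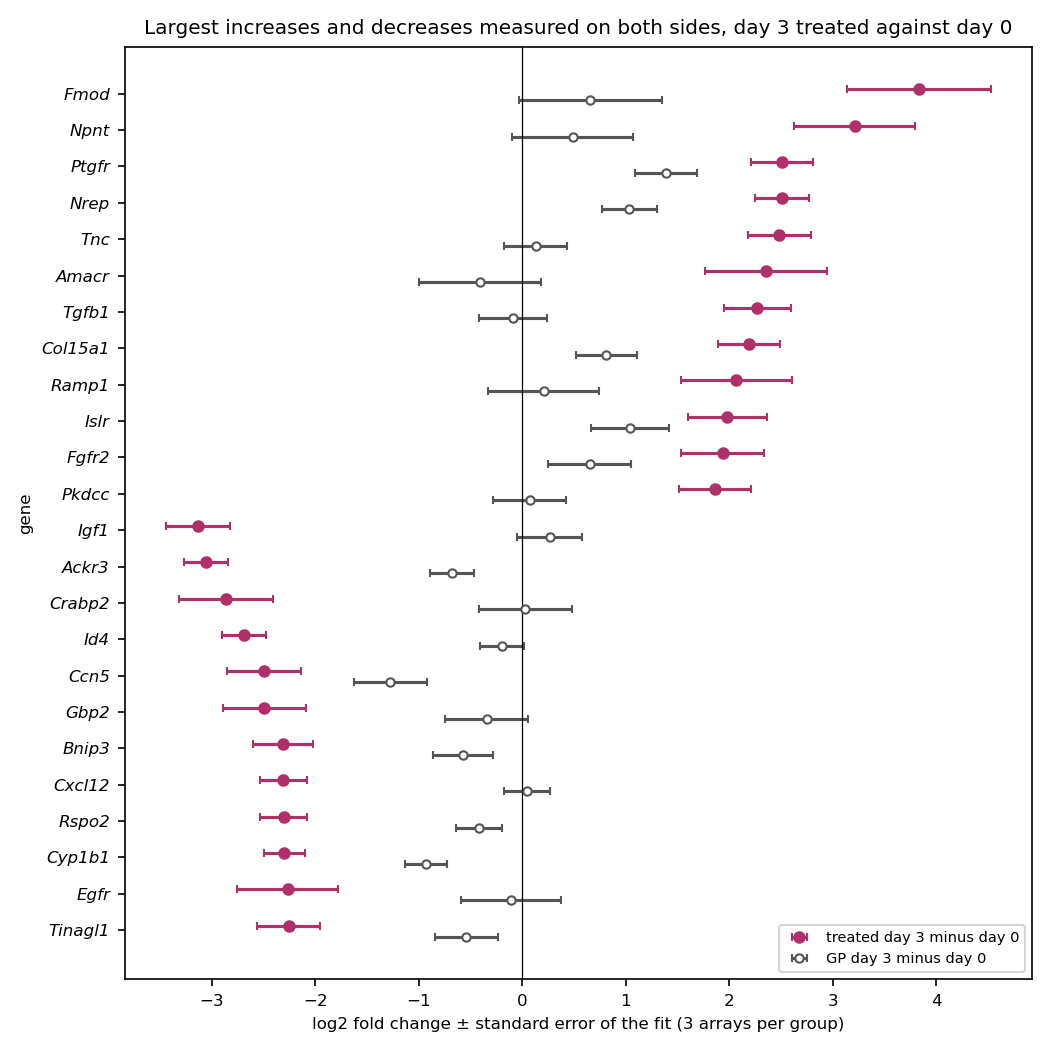
Log2 fold change and standard error from the limma fit (3 arrays per group) of the 12 largest increases and 12 largest decreases whose groups did not overlap and were measured above the filter level on both sides, treated day 3 minus day 0 (filled) and GP day 3 minus day 0 (open). The genes run from Fmod at 3.83 to Igf1 at -3.14 and no GP change of these 24 genes passed; the 2 contrasts share the day 0 arrays.

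The remaining lists had few calls in number, beside shares of 6.44% higher and 6.64% lower over all tested genes. Contractile genes fell in 4 of 20 tested cases (20%) with a median of -0.01. Among them was Synpo, an actin-associated protein, from 234, 163 and 253 to 61.5, 43.9 and 141 (-1.55 ± 0.22, adjusted p = 0.000709). Amino acid synthesis and transport genes fell in 3 of 15 (20%), namely Psat1 by 0.99, Slc7a5 by 0.86 and Slc3a2 by 0.65, of which the former 2 were not past the threshold without the block (adjusted p = 0.405 and 0.649). Of 30 lysosome genes 1 rose (3.33%) and 3 fell (10%). Of 24 genes of the endoplasmic reticulum 1 rose and 1 fell (4.17% each), and of 27 immediate early genes 2 rose and 2 fell (7.41% each). The shares of these last lists are near those of all tested genes. Jun, an immediate early transcription factor, was at 338, 204 and 18.3 and then at 149.8, 79.8 and 11.1 (-1.08 ± 0.33, adjusted p = 0.0478), and this call was lost without any 1 of the day 0 arrays of preparations 1 and 2 or of the treated arrays (adjusted p = 0.0595 to 0.201).

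Markers of other cell types were counted as a check on the gene groups above. Summed over the markers on the array, the 24 genes of macrophages and osteoclasts were at 1085.3 to 1547.2 intensity units at day 0 and at 1076.9 to 1560.9 after treatment, and the 18 of endothelium at 439.8 to 491.5 and 388.5 to 597.9. The 19 genes of fat cells were at 1918.4 to 6473.6 and at 1793.9 to 3578.9, and the 20 of epithelia at 224.4 to 2739.1 and 256.6 to 488.1. The fat-cell sum was lower after treatment in each preparation, at 6473.6, 4199.2 and 1918.4 at day 0 and at 3578.9, 2646.1 and 1793.9 after it, with no test. Fabp4 and Adipoq, fat-cell genes left out by the filter, were higher in each preparation. Fabp4 went from 2.9, 12.8 and 4.7 to 34.2, 56.2 and 14.4, and Adipoq from 2.5, 11.4 and 7.1 to 10.4, 14.8 and 7.6. Of 10 tested fat-cell genes 1 rose (10%) and 2 fell (20%), against 6.44% and 6.64% of all, with a median of 0.00017. The rise was that of Lep and the falls those of Cebpd and Cebpb. All of these calls were lost in limma without the block (adjusted p = 0.149, 0.647 and 0.76). The epithelial sum at day 0 was 2739.1, 567.7 and 224.4. Lcn2, given above with the acute phase genes, is itself on the epithelial list. It made up most of that sum in preparation 1, so the sum there mainly reflects this gene. The 32 skeletal muscle genes, which include the troponins, were at 1366.3 to 1547.0 and at 997.1 to 1464.5, with Acta1 at 3.4 to 18.3 over the 6 arrays. The 15 chondrocyte and 23 neural genes were at 419.8 to 594.7 and 1098.9 to 1871.9 at day 0 and at 466.7 to 706.8 and 1073.5 to 1524.8 after treatment. The part of these markers in the changes above was not tested.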

How the data were processed

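The deposited table held linear intensities per probe set. Each array's mean between its 2nd and 98th percentiles was 149 to 150.0, so the values themselves show a scaling to a common mean before deposit. The software is not given in the sources used here. Values under 2.8 (the 10th percentile) were set to 2.8, log2 was taken, the 66 controls were left out, and probe sets with a mean under 24.8 (the 40th percentile) were left out. Genes were named from the platform annotation, by the brightest of the probe sets with 1 symbol (10833 of 12422, with 396 of several and 1193 of none). The Entrez identifiers of 10817 matched RefSeq (GRCm38.p6) and 0 symbols changed.

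limma 3.58.1 in R 4.3.3 (lmFit, eBayes with a mean trend) fitted all 15 arrays, with 1 coefficient per group and the preparation number as a block (8 residual degrees of freedom), adjusted by Benjamini-Hochberg and called at 0.05. Errors are standard errors of the fit. The comparison was defined as paired by the preparation numbers in the labels. Deviations from group means correlated at 0.26, 0.18 and 0.46 between treated and day 0 arrays of the same number and at -0.32 to 0.16 otherwise. The code of the fit was run on data simulated from the fitted model itself, with independent normal errors. Such a run checks the code and cannot show how far the calls hold in these arrays.

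Genes were named by a rule: the 12 largest changes each way measured on both sides without overlap, 5 each way near background on 1 side, a set of bone and BMP pathway genes, and up to 4 per list by p. Genes named beyond it were chosen after their values were seen. Members and lists were chosen with earlier results of these data known. Alternatives changed the block, arrays, scaling, floor, filter, trend, weights and replicates, and leaving out the GP day 3 array of preparation 3 was chosen after seeing the data. Probe sets of 74 called genes, among them Aldoa, Srm, Nid2, H2-K1, Tnnt1, Kif20a, Igf1 and Egfr, carry suffixes for similar or shared sequences, and the part of other transcripts in their signal was not tested.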

Additional observations from a re-analysis of the deposited data

Results flagged for a closer look

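For 17 of the 130 named genes the change from day 0 went one way in all 3 treated preparations and the opposite way in all 3 GP preparations on day 3, and the difference between treated and GP cultures itself passed in limma. How many of all tested genes do so was not counted. Both changes share the day 0 arrays. None of the GP changes from day 0 passed for these genes, and some were very small. In preparations 1, 2 and 3 the GP change was -0.22, -0.0071 and -0.57 for Smad6 and 0.13, 0.07 and 0.04 for Kdm3a. For Dlx2 it was -0.65, -0.39 and -0.03, and for Col4a2 0.06, 0.15 and 0.27. The differences below therefore do not show that GP alone moved a gene. Treated minus GP, that difference was -6.07 for Tnnc1, -5.62 for Enpep and -4.46 for Tnnt1 on the log2 scale. It was -2.24 for Col4a1, -1.32 for Col4a2, -1.89 for Synpo, -1.73 for Aldh3a1, -1.16 for H2-K1, -1.01 for Kdm3a and -0.79 for Fhl2, a regulator of actin-linked transcription. Genes higher with treatment were Id3 at 3.26, Tnfrsf11b at 2.00, Smad6 at 1.58, Dlx2 at 1.40, Aurkb at 1.32, Myc at 0.94 and Ndufb8, a subunit of respiratory complex I, at 0.56. The adjusted p of these differences ranged from 8.89e-06 for Enpep to 0.00357 for Ndufb8.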

How the results depend on the processing

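For treated day 3 against day 0, quantile normalization, median scaling, both floors, no or a stricter filter, no mean trend and array weights gave 675 to 890 called probe sets against 891. The fit without the block gave 209, the fit of only the 6 arrays 362, and fits without a preparation or an array 250 to 932 (288, 250 and 584 without preparations 1, 2 and 3; 585 and 481 without the day 0 arrays of preparations 1 and 3). For GP day 3 against day 0 the count was 0 without the block (314 at an unadjusted p under 0.05), 6 with only those 6 arrays, 0 without the filter (1055) or the mean trend (711), 36 with array weights, and 0 to 57 when arrays were left out (57 without preparation 3, 13 without its GP array). Treated against GP gave 321 without the block and 261 to 961 when arrays were left out, with 630 and 619 without the GP arrays of preparations 1 and 2. Fewer arrays leave fewer residual degrees of freedom, and the cause of the other changes was not tested.

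Of the 130 named genes, 75 stayed on their side of the threshold without the block, 105 with only the 6 arrays, 118 with median scaling and 110 with a floor of 50. No gene that passed reversed its sign in any alternative run. Reversals were in genes that did not pass. When arrays were left out, Col1a1 ranged from -0.0014 (without the treated array of preparation 1) to 0.24, and Id1 from -0.19 to 0.93, below 0 without preparation 1 or 2 (-0.13) or the treated array of either (-0.14 each). Nog ranged from -0.59 to 0.15, above 0 without preparation 3 or its treated array (0.04), and was at 0.040 with a floor of 50. Bmp4 ranged from -0.12 to 0.41, below 0 without preparation 2 or its treated array (-0.08). Of 33 list medians, 5 changed sign without preparation 2, without preparation 3 and without the treated array of preparation 2, and 0 to 3 in each other alternative. Signal near background limits the sizes given for genes under the filter level.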

Other observations

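Lep and Ctsk, named by the rule and whose values are not given above, were above day 0 in all 3 preparations in both day 3 groups. Lep, leptin, was at 130, 103 and 73.5 intensity units at day 0, at 190.3, 194 and 142 in treated cultures and at 296, 195 and 129.7 with GP alone, a log2 change of 0.80 ± 0.18 (adjusted p = 0.0117 in limma) for treated and 0.97 ± 0.18 (adjusted p = 0.106, not past the threshold) for GP against the same day 0 arrays. Both day 3 groups were higher than day 0 in each preparation, and the call for treated cultures was lost without the block (adjusted p = 0.149), with only the 6 arrays (0.0515), without preparation 2 or 3 (0.146 and 0.0509) and without the day 0 array of preparation 3 (0.0582). Ctsk, cathepsin K, a collagen-degrading protease, was at 242, 256 and 441 at day 0, at 512, 433 and 513 in treated cultures and at 313, 416 and 609 with GP alone (0.51 ± 0.17, adjusted p = 0.322). Its treated change of 0.69 ± 0.17 (adjusted p = 0.0194) was lost without the block (adjusted p = 0.268), with only the 6 arrays (0.0854), without preparation 1 or 2 (0.197 and 0.169), and without the day 0 array of preparation 1 or 2 or the treated array of preparation 1 (adjusted p = 0.0734 to 0.0957).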
